A study of Mus musculus with 8 samples.

Results

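The comparison described here sets CD8+ T cells after 1 h of T cell receptor (TCR) stimulation against untreated CD8+ T cells. It rests on 3 of the 8 arrays of a series on interferon beta (IFNb) and TCR stimulation: the array labelled TCR 1 h without IFNb, and the 2 untreated arrays. For each gene, the mean log2 value of the 2 untreated arrays was subtracted from the log2 value of the TCR 1 h array. All samples were splenic CD8+ T cells of OT-I TCR transgenic mice on the C57BL6 background, isolated magnetically with a pan T cell kit and reported as 90 to 97% pure by staining for CD8α, B220 and CD11c. The OT-I receptor recognises the ovalbumin peptide SIINFEKL on H-2Kb, and the TCR 1 h cells had been cultured for 1 h with streptamers, multimers of H-2Kb loaded with that peptide. No antigen presenting cell or separate costimulus is named in the labels for this stimulation. The untreated cells, replicates 1 and 2, carry no treatment in the labels. The labels do not say how many mice stand behind an array, nor whether the 2 untreated samples came from separate mice or cultures, so that the spread between them may be technical. The comparison is also set beside a second pair of arrays that shares none with it, cells given IFNb for 1 h with TCR stimulation for 1 h and cells given IFNb alone for 2 h, and beside 1 array of TCR stimulation for 6 h.

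When the TCR binds its peptide and MHC, the kinases Lck and Zap70 start calcium, Ras/MAPK and protein kinase C signals that reach the factors NFAT, the ternary complex factors with SRF, AP-1 and NF-kB. Immediate early genes are transcribed from these pre-existing factors without new protein synthesis, and many encode transcription factors and feedback inhibitors themselves. Resting naive T cells are held out of the cell cycle by factors such as Foxo and Klf2, which also maintain receptors for lymph node entry and exit, and activation switches that programme off.

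The samples were hybridised on single-colour Agilent mouse arrays. Values are given as scaled signal, a linear intensity with the 75th percentile of each array set to about 1500 and values under 15 set to 15, and only 1 gene is compared with itself across arrays. The TCR 1 h array lay on the first slide with untreated replicate 1, and untreated replicate 2 lay on the second. The 2 arrays with 1 h of TCR stimulation carry each other's identity in their scanner files and in the value table, and the value table's naming was followed here. Under that naming, 1 of 29 measured antiviral interferon-stimulated genes was at least 2-fold higher in the TCR 1 h array than in each untreated array, whereas under the scanner files' naming 30 of 30 would be. The 2 untreated arrays differed at 154 repeatedly spotted probes with a robust SD of 0.0373 (log2), against 0.0372 from the scatter of the spots alone, and with a plain SD of 0.0686, against 0.0526. Most probes thus differed by no more than the spot scatter and some by more, and the 2 arrays were averaged to 1 sample in the additive fit described next.

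With 1 treated array there is no replicate of the treatment and no p-value for this comparison. A gene was therefore counted as higher or lower when the TCR 1 h array was at least 2-fold from each of the 2 untreated arrays in the same direction. A limma model over 7 samples, with additive terms for IFNb, TCR 1 h and TCR 6 h, gave an adjusted p for a TCR 1 h effect shared by both arrays with 1 h of stimulation. It is named below as the additive fit and is not a test of the single array. It uses the same TCR 1 h and untreated arrays as the 2-fold rule, so that it is no independent check of the genes counted.

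The 5′ ends of 5 genes that were higher and of 1 that was lower are printed as examples. They are not a sample of the higher genes. The windows of Ccl3, Tnfsf14, F3 and Sema7a, which had larger differences than any printed gene, hold no TATAAA and no NF-kB match. Of 11904 measured genes with a promoter sequence (250 bases before to 50 after the start, RefSeq, build GRCm38.p6, the first listed start of each gene), 20 of 118 genes at least 8-fold higher held the letters TATAAA on the gene's strand (16.9%), compared with 6.22% of all. The share was 2.77% of the genes at least 2-fold lower and 6.90% of the 87 genes at least 4-fold lower. For all promoter shares, 8-fold and 4-fold refer to the difference from the mean of the untreated arrays, among genes that met the 2-fold rule. The NF-kB consensus, searched on both strands, stood in 16.1% of the genes at least 8-fold higher, in 9.85% of the genes at least 2-fold lower and in 9.65% of all. Capitals mark TATAAA and the NF-kB consensus. Tnf lies at chr17:35201958-35202257 on the minus strand, Il2 at chr3:37125905-37126204 on the minus strand, Ifng at chr10:118440796-118441095 on the plus strand, Fos at chr12:85473640-85473939 on the plus strand, Nfkbia at chr12:55492598-55492897 on the minus strand and Txnip at chr3:96557707-96558006 on the plus strand.
Tnf: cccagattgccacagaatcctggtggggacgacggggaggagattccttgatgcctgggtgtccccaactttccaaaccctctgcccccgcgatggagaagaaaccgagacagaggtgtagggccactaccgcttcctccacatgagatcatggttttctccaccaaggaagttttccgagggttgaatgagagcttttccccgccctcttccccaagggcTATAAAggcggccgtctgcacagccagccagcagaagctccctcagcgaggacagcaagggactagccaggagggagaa
Il2: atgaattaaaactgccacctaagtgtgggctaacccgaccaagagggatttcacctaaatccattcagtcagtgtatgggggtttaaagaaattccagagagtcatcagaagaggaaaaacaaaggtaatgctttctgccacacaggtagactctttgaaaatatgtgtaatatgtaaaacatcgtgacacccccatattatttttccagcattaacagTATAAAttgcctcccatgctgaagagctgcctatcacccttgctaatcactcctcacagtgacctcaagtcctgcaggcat
Ifng: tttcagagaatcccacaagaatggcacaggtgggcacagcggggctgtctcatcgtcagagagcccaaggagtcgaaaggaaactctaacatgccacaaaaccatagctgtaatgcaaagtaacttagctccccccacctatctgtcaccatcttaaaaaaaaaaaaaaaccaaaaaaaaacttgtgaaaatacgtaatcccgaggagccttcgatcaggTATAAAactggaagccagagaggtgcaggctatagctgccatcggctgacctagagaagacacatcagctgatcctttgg
Fos: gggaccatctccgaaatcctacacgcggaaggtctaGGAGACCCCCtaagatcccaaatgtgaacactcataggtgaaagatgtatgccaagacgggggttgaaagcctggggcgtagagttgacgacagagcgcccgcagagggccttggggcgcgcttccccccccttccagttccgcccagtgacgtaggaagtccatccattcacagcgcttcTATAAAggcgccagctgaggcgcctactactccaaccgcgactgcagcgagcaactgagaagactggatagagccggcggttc
Nfkbia: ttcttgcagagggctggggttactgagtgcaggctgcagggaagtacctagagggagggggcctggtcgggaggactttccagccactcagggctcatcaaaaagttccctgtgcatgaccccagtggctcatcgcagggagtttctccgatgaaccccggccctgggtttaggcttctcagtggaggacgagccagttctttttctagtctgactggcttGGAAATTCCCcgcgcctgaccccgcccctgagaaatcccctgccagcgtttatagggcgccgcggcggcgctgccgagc
Txnip: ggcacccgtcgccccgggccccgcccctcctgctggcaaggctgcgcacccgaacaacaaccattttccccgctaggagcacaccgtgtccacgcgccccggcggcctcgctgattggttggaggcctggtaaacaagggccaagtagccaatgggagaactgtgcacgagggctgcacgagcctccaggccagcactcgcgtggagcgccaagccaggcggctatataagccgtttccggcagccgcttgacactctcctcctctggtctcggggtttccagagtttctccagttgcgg
The 4 windows of Tnf, Il2, Ifng and Fos hold TATAAA. Those of Nfkbia and Fos each hold an NF-kB match, in both on the opposite strand. In the Txnip window none of the searched letters was found. The AP-1 letters TGANTCA stood in 8.47% of promoters of the genes at least 8-fold higher and in 5.48% of all, and the EGR letters GCGTGGGCG in 4.24% and 1.07%. The E-box letters CACGTG were found in 6.78% of the genes at least 8-fold higher, in 12.1% of those at least 2-fold higher and in 9.33% of all. The cyclic AMP response element TGACGTCA stood in 2.54% of the genes at least 8-fold higher, in 4.85% of those at least 2-fold higher and in 2.96% of all. The CArG box, the binding sequence of SRF, stood in 1.69%, 2.53% and 1.40% of the same sets. These shares are descriptions of letters in a window and carry no test.

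After 1 h genes differed in both directions, and the larger folds were upward. Of 18942 genes measured on these arrays, 1502 were at least 2-fold higher in TCR 1 h cells than in each untreated array (7.93%) and 1365 were at least 2-fold lower (7.21%). The 2 untreated arrays were at least 2-fold apart for 292 of the same genes (1.54%), and for 0 of the 7867 genes with a mean untreated signal of at least 1500. At least 4-fold, 436 genes were higher and 212 lower. At least 16-fold, 89 genes were higher and 5 lower, and at least 64-fold 26 were higher and 0 lower. The SD of the log2 difference over all genes was 0.90 for TCR 1 h and 0.29 for the 2 untreated arrays against each other. With normexp background correction and quantile normalization in place of the deposited scaling, the counts were 740 higher and 759 lower. Just inside the 2-fold rule lay Tatdn2, with a difference of 1.01, and Zer1, with a signal of 2215 in TCR 1 h cells, against 4430.4 and 4436 in untreated cells. Just outside lay Dctd, 1.03 on average but under 2-fold against 1 untreated array, and likewise Crlf3, with -1.01.

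**Figure D1:**
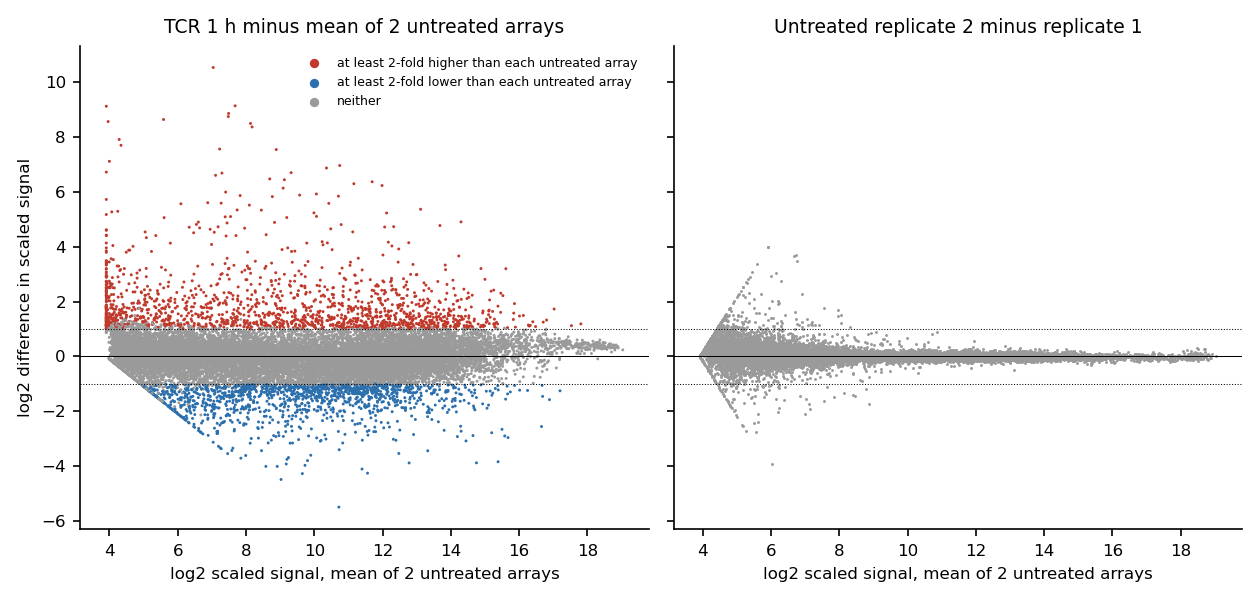
Left, the log2 difference of TCR 1 h minus the mean of the 2 untreated arrays for 18942 genes against the log2 mean untreated signal. Right, untreated replicate 2 minus replicate 1 on the same axes. Red points (1502) and blue points (1365) are at least 2-fold from each untreated array, and dotted lines mark 2-fold. The spread of the right panel is wide only at low signal, while called genes in the left panel lie at all signals.

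Some called genes are known only as bounds. Of the genes counted as higher, 173 were not well above background on either untreated array, and for 104 of these the fold was at least 2 against the lowest detectable signal. Of the genes counted as lower, 234 were not well above background on the TCR 1 h array, and for 146 the bound was at least 2-fold. Calls also depend on the probe, since the brightest probe stood for the gene. Of 460 higher genes with several probes, all probes had the same sign for 416 and were at least 2-fold higher than the untreated mean for 278. Of 403 such lower genes, all probes had the same sign for 306 and were at least 2-fold lower for 157. Because bulk RNA was measured, fewer cells expressing a gene and less RNA per cell cannot be told apart. All counts of gene lists below are to be read beside 7.93% higher and 7.21% lower over all genes.

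The early growth response (EGR) factors, zinc finger activators induced through SRF, were all higher, as were the NAB corepressors that bind and restrain them. All 6 measured members of this list were at least 2-fold higher, with a median log2 difference of 6.31, beside 0.03 for all genes. Egr1 had a signal of 306270 in TCR 1 h cells, against 4053 and 4055 in untreated cells, which is 75.5-fold higher. Egr2 (probe at chr10:67004758-67004817, mm9) had 275686 in TCR 1 h cells, against 3362 and 3276 in untreated cells. Egr3 had 154355 in TCR 1 h cells, against 1326 and 1298 in untreated cells, and its 2 probes gave log2 differences of 5.02 and 6.88. The untreated arrays lay close together for these genes, and the stimulated array far above them. Egr4 had 5936 in TCR 1 h cells and was not well above background in untreated cells (16.2 and 15), so that it was at least 266-fold higher. The corepressor Nab2 was 11.1-fold higher (3444 in TCR 1 h cells, against 310 and 309 in untreated cells) and Nab1 6.07-fold. All 6 were higher in the additive fit, with Egr2 at a log2 difference of 6.17 ± 0.25 (SE; limma adjusted p = 0.000618) and Nab1 at 2.24 ± 0.27 (adjusted p = 0.0119).

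The 3 NR4A orphan nuclear receptors, whose activity is set by their amount since they need no known ligand, were all higher. Nr4a1, also called Nur77 and widely used as a reporter of TCR signal strength, had 607128 after TCR 1 h, against 20089 and 20258 in untreated cells, and was 30.1-fold higher. Nr4a2 had 215045 after TCR 1 h, against 1744 and 1688 in untreated cells. Nr4a3 had 4725 after TCR 1 h, against 18.9 and 20.1 in untreated cells. Of the 3, Nr4a1 had the smallest fold and started from an untreated signal well above background, while Nr4a3 started near the floor. All 3 passed the additive fit, with Nr4a1 at 5.51 ± 0.37 (SE; limma adjusted p = 0.0022).

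**Figure D2:**
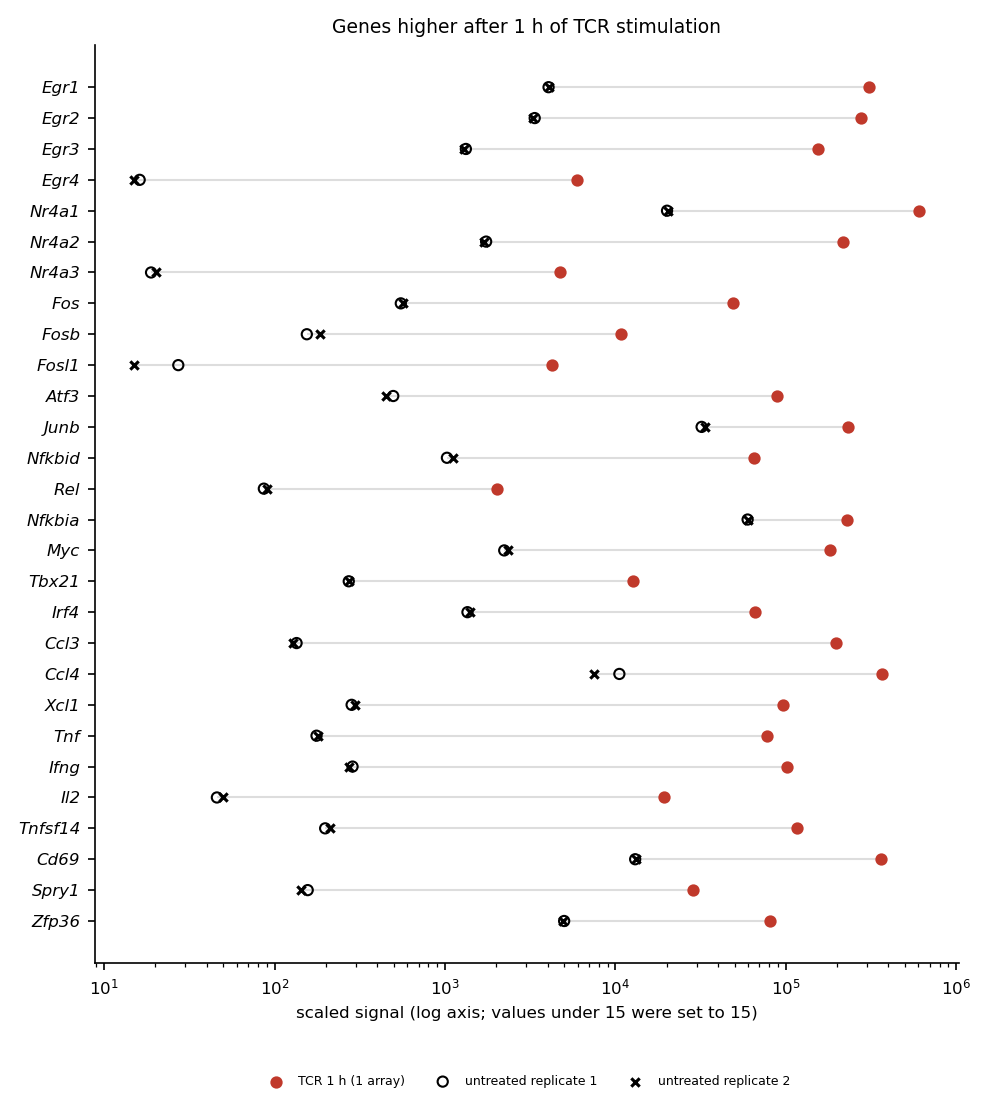
Scaled signal (log axis) of 28 genes in the TCR 1 h array (red) and in untreated replicates 1 (open circles) and 2 (crosses). Only higher genes were chosen for the plot, so that the TCR 1 h array lies to the right of both untreated arrays for each. The difference ranges from 3.81-fold for Nfkbia to 1498-fold for Ccl3.

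Within the AP-1 and CREB family, basic leucine zipper factors that bind DNA as pairs, Fosl1, Atf3, Fos and Fosb had the largest differences. Of 19 measured members 12 were higher and 0 lower (median 1.77), and 1, Batf2, was not measured. Fos had 48727 after TCR 1 h, against 551 and 564 in untreated cells, an 87.4-fold difference. Fosb was 63.9-fold higher, with 10824 after TCR 1 h, against 155 and 185 in untreated cells. Fosl1, whose untreated signal was near the floor, was at least 189-fold higher, with 4226 after TCR 1 h. Fosl2 was 6.6-fold higher, with 44187 after TCR 1 h, against 6705 and 6689 in untreated cells. Among the Jun partners, Junb was 7.04-fold higher (230611 after TCR 1 h, against 32050 and 33485 in untreated cells) and Jund 2.18-fold, while Jun itself had 597 after TCR 1 h, against 372 and 367 in untreated cells, a difference of 0.69 that did not reach the rule. Atf3, a stress-inducible repressor and activator, was 188-fold higher, and Atf4, the factor of the amino acid response, 5.59-fold. Maff and Crem, a small Maf protein and a cyclic AMP response modulator, were 25.2 and 3.75-fold higher. Batf and Bach2, factors that shape effector and memory programmes, had differences of -0.20 and -0.35, within 2-fold. Fos, Fosb, Fosl1, Fosl2, Junb, Atf3, Atf4, Maff and Crem passed the additive fit, which gave Fos 6.40 ± 0.33 (SE; limma adjusted p = 0.00137).

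Of 28 other immediate early genes 23 were higher and 1 lower (82.1% and 3.57%, median 2.62). The largest difference was that of F3, tissue factor, the cell surface trigger of blood clotting. It had a signal of 8423 in TCR 1 h cells and stood at the floor in both untreated arrays, so that it was at least 377-fold higher. Its 2 probes differed by 7.84 and 9.13 (log2). Myc had 180853 after TCR 1 h, against 2227 and 2350.4 in untreated cells, and was 79-fold higher. Plk3, a polo-like kinase of the stress response, was 70.7-fold higher (38483 after TCR 1 h, against 537 and 551 in untreated cells), and Trib1, a pseudokinase adaptor, 29.7-fold. Csrnp1 (17.8-fold), Klf10 (14.9-fold), Bhlhe40 (14.4-fold), Gem (14-fold) and Arc (12-fold) were also higher. The list holds Zfp36, Btg2 and Dusp1 as well, which are described with the lists they share. Arc and Egr3 are best known from active neurons, and Arc had 2089.8 after TCR 1 h, against 181 and 168 in untreated cells. Srf, the factor that drives many of these genes, was 7.24-fold higher. The member that was lower was Klf6 (20109.6 after TCR 1 h, against 50501 and 53394 in untreated cells), and 4, namely Klf4, Hes1, Rgs2 and Mcl1, met neither rule. The 2 probes of Klf6 gave -1.37 and -0.75 on the log2 scale.

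In the NF-kB list both subunits and their inhibitors were higher. Of 20 measured members 12 were higher and 0 lower (median 1.71). Rel, the c-Rel subunit that T cells need for Il2 transcription, had 2018 after TCR 1 h, against 86.6 and 90.2 in untreated cells, a 22.8-fold difference. Nfkb2 was 5.35-fold higher, Rela 3.9-fold, Relb 3.9-fold and Nfkb1 2.44-fold. The brightest of 4 probes gave the value for Nfkb1, and another gave 3.79 on the log2 scale. The largest difference was in Nfkbid, a nuclear IkB protein, with 65194 after TCR 1 h, against 1027 and 1111 in untreated cells (61-fold). Nfkbiz, another nuclear IkB, was 10.9-fold higher, and the cytoplasmic inhibitors Nfkbia, Nfkbib and Nfkbie were 3.81, 4.97 and 3.28-fold higher. Traf1 and Birc3, which signal below TNF receptors, were 6.18 and 3.24-fold higher. Tnfaip3, the deubiquitinase A20 that limits NF-kB signalling, had 69368 after TCR 1 h, against 57104 and 58633 in untreated cells and did not differ by 2-fold. The kinase subunits Ikbkb, Ikbkg and Chuk had differences of -0.15, -0.91 and 0.35. In the additive fit 6 members were higher, among them Nfkbid at 5.49 ± 0.33 (SE; limma adjusted p = 0.00189) and Rel at 3.87 ± 0.42 (adjusted p = 0.00978), while Nfkbia had 1.29 ± 0.46 (adjusted p = 0.153).

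NFAT and calcineurin genes were nearly all within 2-fold. Of 15 measured members 0 were higher and 1 was lower (6.67%, beside 7.21% of all genes). The median was 0.11, or -0.15 after normexp and quantile normalization. Nfatc1, which has an inducible short isoform, had 6221 after TCR 1 h, against 3708 and 3392 in untreated cells at its brightest probe, a difference of 0.81, and 3.28 at its other probe. Rcan1, an inhibitor of calcineurin, had 415 after TCR 1 h, against 574 and 588 in untreated cells. The lower member was Rcan3 (1125 after TCR 1 h, against 2988 and 3204 in untreated cells), 2.75-fold lower. Its 2 probes gave -1.46 and -0.13 on the log2 scale, and in the second pair it had a difference of 0.06. By the additive fit 0 members passed in either direction.

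Feedback inhibitors of the MAPK pathway were mostly higher. Of 14 measured members 9 were higher and 2 lower (median 1.25). Spry1, a Sprouty inhibitor of Ras signalling, was 190-fold higher, with 28473 after TCR 1 h, against 157 and 143 in untreated cells. Dusp2, a nuclear phosphatase of ERK, had 461270 after TCR 1 h, against 50622 and 49632 in untreated cells (9.2-fold). Dusp6, which acts on ERK in the cytoplasm, was 6.37-fold higher, Dusp8 6.19-fold, Dusp4 4.04-fold, Dusp16 2.71-fold and Dusp1 2.06-fold. Spry4 was at least 7.53-fold higher. The 2 lower members were phosphatases too: Dusp7 had 449.6 after TCR 1 h, against 2808 and 3205 in untreated cells (6.67-fold lower), and Dusp10, which acts on p38 and JNK, had 3358 after TCR 1 h, against 8219 and 8214 in untreated cells (2.45-fold lower). In the second pair Dusp10 had the opposite sign, at 1.55 on the log2 scale. Spry2 did not reach 2-fold at its brightest probe (0.68), while its other probe gave a larger value. The additive fit gave Spry1 6.23 ± 0.53 (SE; limma adjusted p = 0.00507) and Dusp7 -2.64 ± 0.30 (adjusted p = 0.0114).

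The list of negative regulators of TCR signalling was mixed, with 7 of 23 higher and 2 lower (median 0.20). These are 30.4% and 8.70%, the second near the 7.21% of all genes. Cish, a SOCS family protein that limits TCR and cytokine signals, had 9308 after TCR 1 h, against 606 and 588 in untreated cells (15.6-fold higher). The phosphatase Ptpn6 (SHP-1) was 6.58-fold higher, Socs1 5.48-fold and the adaptor Sla 4.28-fold. The 3 probes of Ptpn6 ranged from 0.82 to 2.72 on the log2 scale. The ubiquitin ligase Cblb had 928 after TCR 1 h, against 574 and 634 in untreated cells, a difference of 0.62. Sla2 and Ubash3a, 2 further inhibitory adaptors, were 2.92 and 2.35-fold lower. The 2 probes of Sla2 gave -1.54 and -0.93 on the log2 scale.

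Most components of the receptor itself were within 2-fold. Of 20 genes of the TCR complex and proximal signalling 5 were higher and 0 lower (median 0.38, and -0.16 after normexp and quantile normalization). Lcp2, the adaptor SLP-76, was the largest, with 147704 after TCR 1 h, against 14752 and 14500.3 in untreated cells (10.1-fold). Bcl10 and Malt1, 2 members of the complex that links protein kinase C to NF-kB, were 3.47 and 3.18-fold higher. The 2 probes of Bcl10 gave 0.83 and 1.79 on the log2 scale. Zap70 was 3.33-fold higher and Lck 2.1-fold. Cd3d, Cd3e, Cd3g and Cd247 ranged in difference from -0.71 to 0.29, and Cd8a and Cd8b1 had 0.35 and 0.11.

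Genes that regulate mRNA decay were higher in 7 of 16 cases and lower in 2 (43.8% and 12.5%). Zfp36 (tristetraprolin), which destabilises mRNAs with AU-rich elements such as that of Tnf, had 80994 after TCR 1 h, against 5003 and 4902 in untreated cells (16.4-fold higher). Its relative Zfp36l1 was 9.24-fold higher. Zc3h12a, the RNase Regnase-1, was 10.6-fold higher, and the antiproliferative adaptors of deadenylation Tob2, Btg3 and Btg2 were 8.92, 7.14 and 5.22-fold higher. Tob1, a related adaptor linked to T cell quiescence, went the other way, with 2142 after TCR 1 h, against 5439 and 5437 in untreated cells (2.54-fold lower). Roquin genes Rc3h1 and Rc3h2 had differences of -0.20 and -0.39. The additive fit gave Zfp36 3.59 ± 0.27 (SE; limma adjusted p = 0.0033).

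Several cytokine genes were among the largest differences. Of 19 measured cytokines 9 were higher and 1 lower (47.4% and 5.26%). Tnf (probe at chr17:35336795-35336854, mm9) had 77278 after TCR 1 h, against 176 and 181 in untreated cells, and was 433-fold higher. Ifng, the hallmark cytokine of CD8+ effector cells, had 101926 after TCR 1 h, against 287 and 274 in untreated cells (363-fold). Il2, the T cell growth factor, had 19252 after TCR 1 h, against 45.9 and 50.1 in untreated cells (401-fold). For all 3 the untreated arrays lay close together and far below the stimulated array. Il17a was at least 97.5-fold higher, Il3 at least 71.2-fold and Csf2 at least 35.6-fold, each with an untreated signal at or near the floor of 15. Lta, which lies beside Tnf in the genome, was 33.6-fold higher (19679.5 after TCR 1 h, against 581 and 591 in untreated cells), whereas Ltb, the third gene of that cluster, had 174189 after TCR 1 h, against 161843 and 152943 in untreated cells and a difference of 0.15. Il16 was the lower member, with 2432 after TCR 1 h, against 13015 and 12444 in untreated cells (5.23-fold lower). Il5, Il21 and Lif were not measured here. Ifng, Tnf, Il2, Il17a, Lta and Il3 passed the additive fit, with Ifng at 8.54 ± 0.30 (SE; limma adjusted p = 0.000618) and Il2 at 6.61 ± 0.87 (adjusted p = 0.0153).

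Of 11 measured chemokines 6 were higher and 0 lower. Ccl3 (probe at chr11:83461358-83461417, mm9), an inflammatory chemokine, had 196930 after TCR 1 h, against 135 and 128 in untreated cells, a 1498-fold difference and the largest among genes with a usable symbol. Ccl4, its neighbour in the genome and in function, had 367582 after TCR 1 h, against 10550.1 and 7458 in untreated cells (41.4-fold). Xcl1, which attracts cross-presenting dendritic cells, had 96340.3 after TCR 1 h, against 283 and 296 in untreated cells (333-fold). Cxcl10, also an interferon-stimulated gene, was 6.11-fold higher. Ccl5, already bright in untreated cells, had 41299 after TCR 1 h, against 36891 and 35821 in untreated cells and a difference of 0.18. Ccl3, Ccl4 and Xcl1 passed the additive fit, with Ccl3 at 8.89 ± 0.68 (SE; limma adjusted p = 0.0033).

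Among the 10 TNF superfamily ligands 6 were higher and 1 lower. Tnfsf14 (LIGHT), a costimulatory ligand, had 116476 after TCR 1 h, against 198 and 213 in untreated cells (568-fold higher). Tnfsf11 (RANKL) was 57-fold higher, with 24912 after TCR 1 h, against 437 and 436 in untreated cells, and its 2 probes gave 5.83 and 5.84. Tnfsf9 (the 4-1BB ligand) was 23.2-fold higher, and Fasl, the death ligand, 6.05-fold. Cd40lg, usually described in CD4+ helper cells, was at least 24.3-fold higher, with 544 in TCR 1 h cells and 15 in both untreated arrays. Cd4 itself had 143 after TCR 1 h, against 110.3 and 115 in untreated cells. Tnfsf13b (BAFF) was the lower member and had only a bound of 1.39-fold. Of 12 TNF receptors 4 were higher and 0 lower, with Tnfrsf1b (TNF receptor 2) at 17.7-fold, Cd27 at 4.7-fold, Tnfrsf9 (4-1BB) at 4.58-fold and Tnfrsf10b at 2.25-fold. Under the scanner files' naming Tnfrsf10b and Prf1 would be lower, at -0.77 and -0.40 on the log2 scale. The value of Tnfrsf1b comes from the brighter of 2 probes, and the other gave 0.76.

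Surface receptors of activated T cells followed, with 13 of 22 higher and 0 lower (median 1.80). Slamf7, a SLAM family receptor, was 105-fold higher (66893 after TCR 1 h, against 652 and 628 in untreated cells), Cd160, a receptor for the TNF receptor family member HVEM, 103-fold, Slamf1 59.2-fold and Crtam 57.7-fold. Cd69, the early activation antigen that retains cells in the lymph node by acting on S1pr1, had 360623 after TCR 1 h, against 13062 and 13213 in untreated cells (27.5-fold). Cd274 (PD-L1) was 34.6-fold higher and Pdcd1 (PD-1) 4.56-fold. Il2ra, the alpha chain of the IL-2 receptor, had 909.9 after TCR 1 h, against 182 and 179.7 in untreated cells (5.04-fold), and its 4 probes ranged from 2.33 to 5.05. Cd44, Cd28, Ctla4 and Il2rb had differences of 0.44, 0.47, -0.18 and 0.19. Cd69 passed the additive fit at 3.21 ± 0.63 (SE; limma adjusted p = 0.0394), and Cd274, at 2.68 ± 0.98 (adjusted p = 0.162), did not.

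Of 12 cytotoxic effector genes 4 were higher and 0 lower. Gzmc was 26.3-fold higher (2125 after TCR 1 h, against 75.2 and 86.7 in untreated cells). Prf1 (perforin) was 3.04-fold higher, with 11873 after TCR 1 h, against 3225 and 4733 in untreated cells. Srgn (serglycin, the granule proteoglycan) was 2.28-fold higher and Gzmb (granzyme B) 2.27-fold, with 4077 after TCR 1 h, against 1811 and 1783 in untreated cells for Gzmb. Of these 4 only Gzmc was over 4-fold. Among 24 effector and memory fate factors 5 were higher and 1 lower (20.8% and 4.17%, beside 7.93% and 7.21% of all genes). The median was -0.0027, or 0.68 under the scanner files' naming. Irf4, whose amount tracks TCR signal strength, had 66141 after TCR 1 h, against 1355 and 1395 in untreated cells (48.1-fold higher). Tbx21 (T-bet), the driver of type 1 effector genes such as Ifng, had 12608 after TCR 1 h, against 273 and 275 in untreated cells (46-fold). Irf8 was 10.8-fold higher, Id3 8.99-fold and Bcl6 3.71-fold. Eomes, the relative of T-bet, had 253 after TCR 1 h, against 369 and 366 in untreated cells, and Prdm1 (Blimp-1) 319 after TCR 1 h, against 367 and 364 in untreated cells, neither of them 2-fold. Gata3 was the lower member (2.16-fold). Tbx21 and Irf4 passed the additive fit at 5.42 ± 0.29 (SE; limma adjusted p = 0.00137) and 5.11 ± 0.39 (adjusted p = 0.0033).

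**Figure D3:**
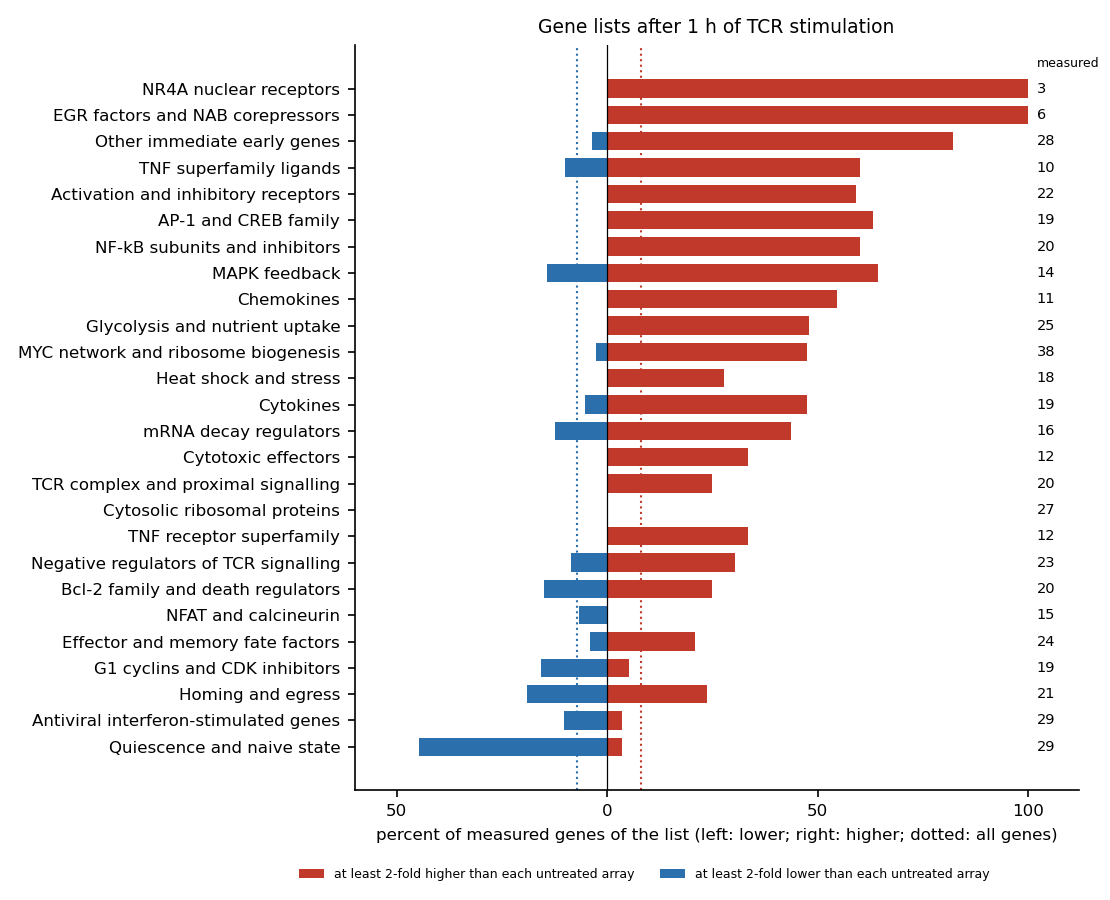
Percent of the measured genes of each list that were at least 2-fold higher (red, right) or lower (blue, left) in TCR 1 h cells than in each untreated array, ordered by the list's median log2 difference, with the number measured at the right. Dotted lines give the shares over all genes, 7.93% and 7.21%. The EGR and NR4A lists were higher throughout, and the quiescence list had the largest share of lower genes.

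Some growth and stress genes were higher. Of 38 genes of the MYC network and ribosome biogenesis 18 were higher and 1 lower (47.4% and 2.63%, median 0.91). Beside Myc, the largest were Gnl3 (nucleostemin), 5.94-fold higher with 21148 after TCR 1 h, against 3524 and 3593 in untreated cells, the histone-binding ribosome assembly factor Grwd1 (5.2-fold), the assembly factor Rrs1 (5.05-fold) and spermidine synthase Srm (5.07-fold). Nucleolar proteins Ncl and Npm1 had differences of 0.80 and 0.40. The lower member was Mxd4, a Myc antagonist (2.12-fold). Of 25 genes of glycolysis and nutrient uptake 12 were higher and 0 lower (median 0.92). Slc3a2, the heavy chain of amino acid transporters, was 4.12-fold higher (78087 after TCR 1 h, against 18919.7 and 18960.1 in untreated cells), Pgam1 4.06-fold, the glutamine transporter Slc38a1 3.15-fold, the leucine transporter Slc7a5 3.31-fold, Hk2 3.12-fold and the glucose transporter Slc2a1 2.25-fold. Of 18 heat shock and stress genes 5 were higher, led by Chac1, a glutathione-degrading enzyme of the stress response (9.46-fold), and the endoplasmic reticulum chaperone Hspa5 (4.95-fold). In the additive fit 16 genes of the MYC and ribosome biogenesis list and 9 of the glycolysis and uptake list were higher, with Gnl3 at 2.41 ± 0.25 (SE; limma adjusted p = 0.00921).

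Their counts depend on the scaling and on the array naming. All 27 cytosolic ribosomal protein genes differed by 0.27 to 0.50, none of them 2-fold, with a median of 0.36 that normexp and quantile normalization turned to -0.04. The median difference over all genes with an untreated signal of at least 50000 was 0.38, and that of genes between 500 and 1500 was -0.15. With normexp and quantile normalization 12 of the 38 ribosome biogenesis genes and 9 of the 25 glycolysis and uptake genes were at least 2-fold higher, with medians of 0.43 and 0.49. Under the scanner files' naming 10 ribosome biogenesis genes were higher and 3 lower, 7 glycolysis and uptake genes were higher, and 2 of 18 heat shock and stress genes.

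Many genes of the resting programme were lower after 1 h. Of 29 genes of quiescence and the naive state 13 were lower and 1 higher (44.8% and 3.45%, median -0.85). Txnip, which restrains glucose uptake and binds thioredoxin, had 2982 after TCR 1 h, against 42003 and 43589 in untreated cells, 14.4-fold lower and the largest negative difference among genes with a usable symbol. Its 2 probes gave -3.84 and -3.35. Klf2, the factor that sustains S1pr1 and quiescence, had 17524 after TCR 1 h, against 100706 and 105966 in untreated cells (5.9-fold lower), although its dimmer probe gave -0.20. Klf3 was 5.85-fold lower and Sesn1, a p53 and Foxo target, 6.33-fold, with 7328 after TCR 1 h, against 47339.6 and 45384 in untreated cells and similar values at its 3 probes. Pik3ip1, an inhibitor of PI3 kinase, had 9231 after TCR 1 h, against 34383 and 34008 in untreated cells (3.7-fold lower), and Il7r, the receptor of the survival cytokine IL-7, 38429.5 after TCR 1 h, against 104797 and 106565 in untreated cells (2.75-fold lower). Foxo3 was at least 3.73-fold lower, while Foxo1 had a difference of -0.64. Cnr2, the cannabinoid receptor of lymphocytes, was 6.71-fold lower. Il4ra was the higher member, with 84007 after TCR 1 h, against 35156 and 33435 in untreated cells. Of the 29, 6 were lower in the additive fit, among them Txnip at -2.80 ± 0.42 (SE; limma adjusted p = 0.0202), Sesn1 at -2.32 ± 0.28 (adjusted p = 0.0124) and Pik3ip1 at -1.96 ± 0.23 (adjusted p = 0.0119), while Klf2 had -1.72 ± 0.42 (adjusted p = 0.0652) and Il7r -1.11 ± 0.26 (adjusted p = 0.0594).

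**Figure D4:**
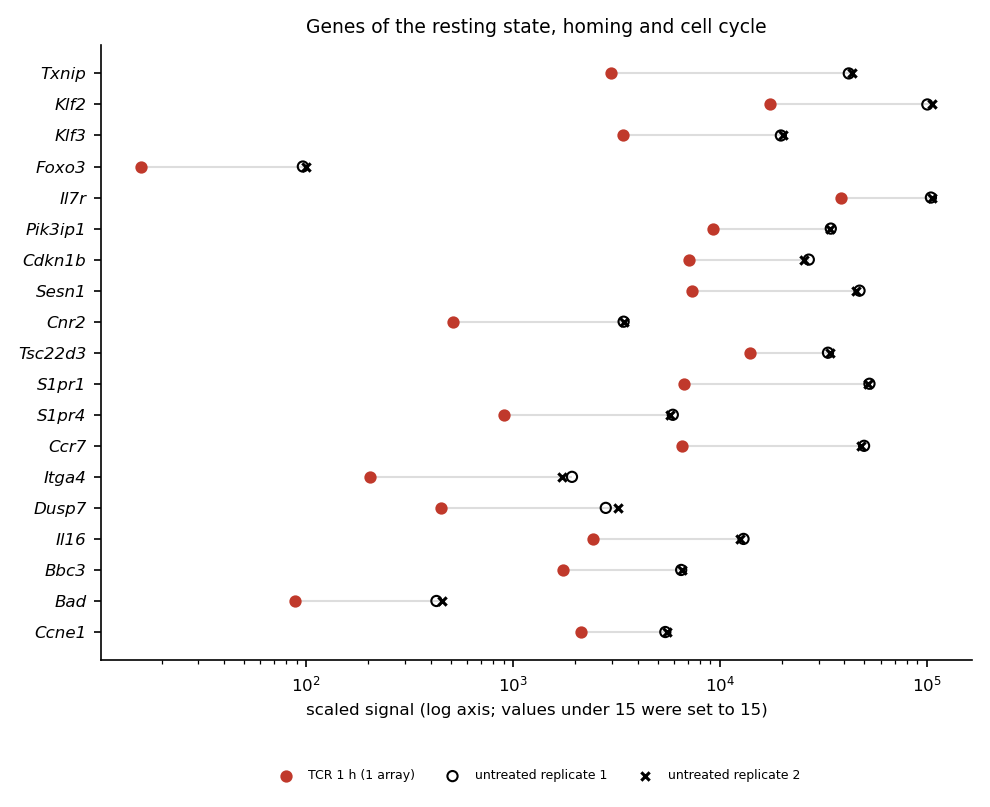
Scaled signal (log axis) of 19 lower genes in the TCR 1 h array (red) and untreated replicates 1 (open circles) and 2 (crosses). They come from the quiescence, homing, death and cell cycle lists, with Dusp7 and Il16 from the MAPK feedback and cytokine lists. Only lower genes were chosen for the plot, so that the TCR 1 h array lies left of both untreated arrays for each. The difference is at least 2-fold throughout and 14.4-fold for Txnip. In the full lists, 13 of 29 quiescence genes were lower and 1 higher, and 4 of 21 homing genes were lower and 5 higher.

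Homing genes differed in both directions, with 4 of 21 lower and 5 higher (19.0% and 23.8%). S1pr1, the receptor for egress, had 6715 after TCR 1 h, against 52876 and 51852 in untreated cells (7.8-fold lower), Ccr7, the receptor for entry, 6545 after TCR 1 h, against 49799.6 and 48101 in untreated cells (7.48-fold lower) and S1pr4 902 after TCR 1 h, against 5922 and 5710 in untreated cells (6.45-fold lower). The integrin subunit Itga4 was 8.93-fold lower at its brightest probe, but its 6 probes ranged from -3.16 to -0.04. The higher members were Rgs16 (25.7-fold), a brake on chemokine receptor signalling, the inflammatory chemokine receptor Cxcr3 (6.16-fold, 22558 after TCR 1 h, against 3709 and 3615 in untreated cells), Gpr183 (3.49-fold), Rgs3 (2.86-fold) and Itgb2 (2.04-fold). In the additive fit Ccr7 had -1.93 ± 0.39 (SE; limma adjusted p = 0.0436), S1pr4 -2.03 ± 0.35 (adjusted p = 0.0287) and S1pr1 -1.54 ± 0.53 (adjusted p = 0.142). Ccr7 did not pass with slide as a block.

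In the Bcl-2 family and death list 5 of 20 were higher and 3 lower (25% and 15%). Gadd45b and Gadd45g, stress sensors that activate p38 signalling, were 37.7 and 37.8-fold higher. In the second pair Gadd45b was also higher (2.96), and Gadd45g was lower (-1.30). The survival genes Bcl2a1b and Bcl2l1 were 26.7 and 4.77-fold higher, with 136987 after TCR 1 h, against 4998 and 5276 in untreated cells for Bcl2a1b, one of several near-identical copies whose probes may detect each other. The pro-apoptotic Pmaip1 (Noxa) was 3.49-fold higher. The BH3-only genes Bad, Bbc3 (Puma) and Bmf were 4.98, 3.75 and 2.82-fold lower, with 1738 after TCR 1 h, against 6499.7 and 6549 in untreated cells for Bbc3. In the second pair Bmf was higher, with 1133 in IFNb 1 h with TCR 1 h cells, against 400.1 in IFNb 2 h cells. Mcl1 had a difference of 0.58. Among G1 cyclins and CDK inhibitors 1 of 19 was higher (5.26%, beside 7.93% of all genes) and 3 were lower (15.8%, beside 7.21%). The higher one was Cdkn1a (p21), with 13315 after TCR 1 h, against 227 and 227 in untreated cells (58.6-fold; additive fit 5.21 ± 0.47, SE, limma adjusted p = 0.00571). The lower ones were Cdkn1b (p27), with 7099.7 after TCR 1 h, against 26915 and 25551 in untreated cells (3.69-fold), Ccne1 (cyclin E1, 2.59-fold) and Cdkn2c (p18, 2.29-fold). Cyclins Ccnd2 and Ccnd3 had differences of 0.94 and -0.14.

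Usable symbols leave out clone, accession, Gm and Rik names. Among the 16 largest positive differences with a usable symbol, the 1 outside the groups above was Sema7a, a membrane-anchored semaphorin, with 84192 after TCR 1 h, against 179.9 and 179.9 in untreated cells (468-fold). Among the 12 largest negative differences, Txnip, Itga4 and S1pr1 are described above. The others were Kcnj8, a potassium channel subunit (at least 8.78-fold lower), Spef2 (at least 5.58-fold, but 0.44 on the log2 scale under the scanner files' naming), Xlr5a (8.98-fold), Lrrc75b (8.97-fold), the zinc finger genes Zfp324 (at least 5.01-fold) and Zkscan14 (8.34-fold), the DnaJ family member Dnajc28 (8.54-fold), the threonine aldolase Tha1 (8.09-fold) and Klhl42 (7.86-fold). Klhl42 had 3 probes from -2.97 to 2.48, so that its direction depends on the probe, and the 2 probes of Kcnj8 gave -3.71 and -0.48. Of the lower genes 59.6% had a usable symbol, beside 73.3% of the higher genes and 75.4% of all.

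Antiviral genes and markers of other cells differed in different shares, to be read beside 7.93% higher and 7.21% lower over all genes. Of 29 measured antiviral genes 1 was higher (3.45%), Isg15 (4742 after TCR 1 h, against 1983 and 1749.7 in untreated cells), and 3 were lower (10.3%), Ifit2 (3.82-fold), Stat2 (2.87-fold) and Ifit3b (2.18-fold), with a median of -0.14. Under the scanner files' naming Ifit2, Stat2 and Ifit3b would be higher, by 4.55, 3.61 and 8.01 on the log2 scale. The summed signal of 9 B cell markers was 13404 in TCR 1 h cells, against 15216 and 14863 in untreated cells, and that of 8 class II presenting cell markers was 27854, against 27877 and 27348. None of these was 2-fold different. Of 14 myeloid markers 4 were higher (28.6%) and 1 lower (7.14%). The higher ones were Itgam, Itgax, Cd14 and S100a9, with Itgax at 557 after TCR 1 h, against 140 and 157 in untreated cells, while Lyz2, Csf1r and Tyrobp had differences of -0.03, -0.03 and 0.02. Under the scanner files' naming Itgax and Cd14 would be at -0.0115 and -0.29. The summed signal of the 14 myeloid markers was 8581 in TCR 1 h cells, against 8054 and 8085 in untreated cells, and that of 9 natural killer cell markers was 2781, against 3269 and 3219. The part of these cells in any result was not tested. Fcgr3, on both the myeloid and the natural killer cell list, was the lower member of each (303 after TCR 1 h, against 810.4 and 849 in untreated cells). Of 9 T cell markers Cd5, which is itself induced by TCR signals, was 5.36-fold higher and Lck 2.1-fold, and the other 7 were within 2-fold. The T cell marker median was 0.33, or -0.34 after normexp and quantile normalization, and all 9 were well above background on each array. Of 5 erythroid markers 0 differed by 2-fold.

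The second pair of arrays allows a look at the same genes in samples that the comparison did not use. IFNb 1 h with TCR 1 h was set against IFNb 2 h, where 1961 of 17973 genes were at least 2-fold higher (10.9%) and 2333 lower (13%). Of the 1502 genes higher in TCR 1 h cells, 1395 were measured there, 800 were also at least 2-fold higher (57.3%, and 40.8% of those higher in the second pair), 1253 had the same sign and 34 were at least 2-fold lower. Of the 1365 lower genes 1343 were measured there, 625 were also at least 2-fold lower (46.5%, and 26.8% of those lower in the second pair), 1173 had the same sign and 23 were at least 2-fold higher. The median difference of the higher genes was 1.55 in the first pair and 1.16 in the second, and that of the lower genes was -1.39 and -0.91. Across the 17973 genes Pearson's r was 0.587, a description over genes, which are not independent and share the cell preparation and array type. Marker medians of B cells, class II presenting cells and natural killer cells were -0.13, -0.01 and -0.10 in the first pair (the last at 0.0018 after normexp and quantile normalization), and -1.88, -1.65 and -1.60 in the second. Their part in these shares was not tested.

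By gene, several of the largest differences had similar values in the 2 pairs. Egr1 differed by 6.24 without IFNb and by 6.19 with IFNb, Egr2 by 6.38 and 6.14, Fos by 6.45 and 6.10, Ifng by 8.50 and 8.27 and Tbx21 by 5.52 and 5.66. Other genes had larger values without IFNb, with Il2 at 8.65 and 5.49, Xcl1 at 8.38 and 5.04, Tnfsf14 at 9.15 and 6.02, Nr4a3 at 7.92 and 5.02 and Csf2 at 5.73 and -0.42. Cd274 had 5.11 and 1.10, and Socs1 2.46 and -0.70. In the second pair the signal of Cd274 was 57374 in IFNb 1 h with TCR 1 h cells, against 26680.4 in IFNb 2 h cells, and that of Socs1 was 28931, against 46944. Both were thus already bright in IFNb 2 h cells. Among the lower genes, Cnr2 (-2.75 and -2.93), Pik3ip1 (-1.89 and -1.89) and Dusp7 (-2.74 and -2.54) had similar values, and S1pr1 had -2.96 without IFNb and -0.43 with it. With 1 array per condition none of these differences between pairs was tested.

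**Figure D5:**
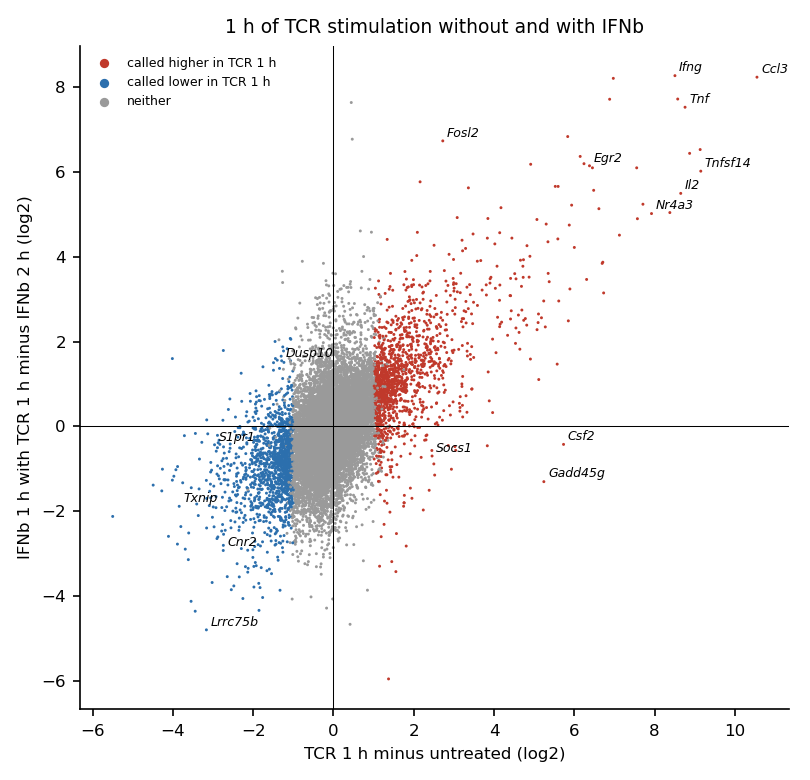
Log2 difference of TCR 1 h minus untreated (horizontal) and of IFNb 1 h with TCR 1 h minus IFNb 2 h (vertical) for 17973 genes, with 800 genes at least 2-fold higher and 625 at least 2-fold lower in both. Red and blue points were called in the horizontal comparison, and Gadd45g and Csf2 lie far to the right with values below 0 on the vertical axis.

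The additive fit over both pairs called 624 of 19603 genes higher (3.18%) and 455 lower (2.32%) for the TCR 1 h term. Of the 1502 genes higher by the 2-fold rule 580 were among them (38.6%), and of the 1365 lower genes 405 (29.7%). Conversely 93.4% and 89.4% of the measured genes that the fit called met the 2-fold rule. The fit and the rule share the TCR 1 h and untreated arrays, so that this overlap is partly built in. In simulated data with 19280 genes the fit recovered 53 of 66 genes changed by 4 on the log2 scale. It recovered 22 of 67 changed by 2 and 2 of 67 changed by 1, with 3 false calls in all. The simulation gave both TCR 1 h arrays the same change and independent normal noise. In the data the 2 pairs can differ, as for Il2 (8.65 and 5.49). The false calls therefore do not give the error rate in these data. The counts rest on single arrays: 34 genes were higher and 3 lower without the TCR 1 h array, 101 and 18 without IFNb 1 h with TCR 1 h, 105 and 27 without IFNb 7 h, and 139 and 39 without IFNb 2 h. Without either array of TCR 6 h, 345 were higher and 149 lower. Each fit without a treated array also had 2 residual degrees of freedom in place of 3. The part of that loss in the lower counts was not tested. Leaving out 1 untreated array kept the 3 degrees of freedom. With slide as a block and the untreated arrays as 2 samples, Ccr7, Bcl10, Cd40lg, Tnfsf9, Cdkn1b, Ccne1, Cd5 and Zkscan14 no longer passed the fit, and Fcgr3 newly passed.

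At 6 h of TCR stimulation, 1 array read against the same untreated arrays, the early factors and the effector genes stood at different levels. Egr3 had 1326 and 1298 in untreated cells, 154355 at 1 h and 4095 at 6 h. Fos had 551 and 564 in untreated cells, 48727 at 1 h and 3363 at 6 h, and Zfp36 5003 and 4902, 80994 and 5444. These 3 were highest at 1 h and stood far lower at 6 h. Nr4a1 had 607128 at 1 h and 371632 at 6 h. Among cytokines and chemokines Tnf had 77278 at 1 h and 13707 at 6 h, Il2 19252 and 71358, Xcl1 96340.3 and 283541, and Csf2 796 and 12656. Ifng had 101926 and 63799, Lta 19679.5 and 16716, and Il17a 2226 and 1592. Tnf, Ifng, Lta and Il17a were thus lower at 6 h than at 1 h, and Il2, Xcl1 and Csf2 higher. Tnfrsf9 had 5778 at 1 h and 146664 at 6 h, Il2ra 909.9 and 21428, and Gzmb 4077 and 45686. Il7r was lower still at 6 h (38429.5 at 1 h and 526 at 6 h), as was S1pr1 (6715 and 385), whereas Ccr7 had 6545 and 18548. The median difference of the ribosome biogenesis list was 0.91 at 1 h and 2.78 at 6 h, and that of the quiescence list -0.85 and -3.30. Marker medians of B cells, class II presenting cells and natural killer cells were -1.32, -1.17 and -0.99 at 6 h. At 1 h they were -0.13, -0.01 and -0.10. The part of these cells in the differences between times was not tested. The 1 h array lay on the first slide and the 6 h array on the second, so that time and slide cannot be told apart. Each time point has 1 array, and these differences were not tested.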

How the data were processed

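Single-colour Agilent arrays measured RNA of 8 samples. The deposited values are linear intensity: each scanner file's processed intensity (Feature Extraction 10.7.3.1 per the file headers, 9.5.3.1 per the submitters' processing notes), multiplied by 1.21 to 1.86 to bring the 75th percentile to about 1500, with a minimum of 15, as found by setting the value table against the scanner files. Column medians, in the order of the series, were 89.6, 102.4, 92.6, 95.8, 92.2, 100.6, 80.7 and 73.8. In the table, the columns of TCR 1 h and of IFNb 1 h with TCR 1 h match each other's scanner files, and the labels do not say which naming is right. Under the value table's naming 1 of 29 measured antiviral genes was at least 2-fold higher in the TCR 1 h array. Under the scanner files' naming 30 of 30 would be. No centring was found. The log2 scale was computed here from the deposited intensity.

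Of 41174 probes, 26690 were named by accession (3169 renamed), 952 by synonym and 13532 as in the file. Outlier spots (100 to 246 per array) and 1639 control spots were left out, and 0 spots were saturated. Genes needed a probe well above background on at least 2 arrays, the brightest probe stood for the gene, and 18942 of 19606 were measured on the 3 arrays. Where 1 side was not well above background, the fold is a bound against the lowest detectable signal on that side. The additive limma fit had 3 residual degrees of freedom and Benjamini-Hochberg adjustment at 0.05, and was tested on simulated data. With 1 treated array, the number of arrays limits the precision.

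Genes named were the 16 largest positive and 12 largest negative differences, the 4 largest of each list, members of the regulatory, cytokine, quiescence, homing and TCR lists, and a fixed set of well-known genes. Other members named were chosen after their values were seen. The members, the 33 lists and the tests were chosen with earlier results of these data known. Alternatives covered normalization, filter, probes, array naming, slide and leaving out each array. Probe coordinates are mm9 per the file headers, and promoter sequences are RefSeq's, build GRCm38.p6. The tools were R 4.3.3, limma 3.58.1, data.table (1.17.8), Python 3.11.15, numpy 2.4.6, pandas 2.3.3 and matplotlib 3.10.9.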

Additional observations from a re-analysis of the deposited data

Results flagged for a closer look

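For 3 named genes the TCR 1 h array and the second pair of arrays, cells with IFNb for 1 h and TCR stimulation for 1 h against cells with IFNb for 2 h, differed by at least 2-fold in opposite directions. Dusp10, a phosphatase of p38 and JNK, was at -1.29 on the log2 scale without IFNb and at 1.55 with IFNb. Bmf, a BH3-only death gene, was at -1.49 without IFNb, and with IFNb it had a signal of 1133 after TCR stimulation, against 400.1 in IFNb 2 h cells. Gadd45g, a stress sensor, was at 5.24 without IFNb and at -1.30 with it. Each value rests on 1 stimulated array, and the differences between the pairs were not tested.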

How the results depend on the processing

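No paired analysis was possible because the treated condition has 1 array. With normexp and quantile normalization 740 genes were at least 2-fold higher and 759 lower, of which 456 and 335 were shared with the second pair. At 4-fold the counts were 436 and 212, with 210 and 48 shared. Leaving out 1 untreated array gave 1697 to 1785 higher and 1497 to 1610 lower, and within the slide of the TCR 1 h array, with untreated replicate 1 alone, the counts were 1785 and 1497. The scanner files' naming gave 1779 higher and 1048 lower, and turned the direction of Spef2 (0.44), Tnfrsf10b (-0.77), Prf1 (-0.40), Ifit2 (4.55), Stat2 (3.61), Ifit3b (8.01), Itgax (-0.0115) and Cd14 (-0.29). In the additive fit, 1333 genes were higher and 1375 lower with the untreated arrays as 2 samples, 10 and 9 without the filter, 295 and 188 under the scanner files' naming, and 1101 lower after normexp and quantile normalization. Leaving out 1 array gave 34 to 614 higher and 3 to 467 lower. Leaving out a treated array also left 2 residual degrees of freedom in place of 3. The fit with slide as a block also took the untreated arrays as 2 samples, and it gave 472 higher and 338 lower. Its like comparison without the block is the 1333 and 1375 above, not the 624 and 455 of the main fit. Against the main fit, 8 of the 145 named genes (Ccr7, Bcl10, Cd40lg, Tnfsf9, Cdkn1b, Ccne1, Cd5 and Zkscan14) lost their call. Kept outlier spots (1539 and 1371) and signal without the floor (1508 and 1460) were alternatives close to the counts given, the first added after seeing the data. The cause of these shifts was not tested. Of the 145 named differences, 133 moved by more than the replicate spread with normexp and quantile normalization. Under the scanner files' naming 135 moved and 8 reversed, and 53 moved with the mean of all probes. This spread is that of the 2 untreated arrays, which lay close together for most genes, so that small shifts count as moved. Leaving out 1 untreated array shifts a difference by less than this spread by construction. That setting therefore cannot show whether the named differences are stable.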

Other observations

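Genes whose symbols begin with Zfp, Zkscan, Zscan or Zbtb, most of them zinc finger proteins, were often lower after 1 h. Of 379 measured, 96 were at least 2-fold lower than in each untreated array (25.3%) and 19 were higher (5.01%), beside 7.21% and 7.93% of all genes. Their median log2 difference was -0.45 in the TCR 1 h array and -0.26 in the second pair, beside 0.03 and -0.06 for all genes. This class was chosen after the values were seen and carries no test. At 6 h of TCR stimulation the zinc finger median was -0.14, beside 0.14 for all genes. Other name classes were lower too. Of 1101 clone names (Rik, Gm) 150 were lower (13.6%) and 90 higher (8.17%). Kinesin and centrosome names (Kif, Cep) had a median of -0.35 at 1 h, with 5 of 68 lower (7.35%) and 1 higher. Small nucleolar host genes (Snhg) gave 3 higher and 0 lower of 10. Solute carrier names (Slc) gave 18 higher and 19 lower of 275, close to the shares over all genes.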
